A study of Mus musculus with 6 samples.

Results

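Regions of open chromatin that were found in beige adipocytes and in neither white nor brown adipocytes are described here. They were chosen by their peaks: the peak intervals of 6 ATAC-seq libraries were merged where they overlapped or touched, and a region was kept if both beige libraries and none of the white or brown libraries had a peak in it. This selected 3781 of 194496 merged regions, or 1.94%. The same rule gave 2381 regions for white alone, 1707 for brown alone, 2438 for beige and brown without white, and 2257 for beige and white without brown, while 58714 regions had a peak in all 6 libraries. Because the peaks themselves chose the regions, their presence in beige and their strength there are a description and no finding, and no test was made on them.

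The beige and white libraries, 2 of each, came from the inguinal stromal vascular fraction of male C57BL/6J mice aged 3 to 4 weeks, and the 2 brown libraries from the stromal vascular fraction of brown fat. All cultures were differentiated for 7 days, in media with insulin at 5 μg/ml per the labels (the methods of the study give other insulin concentrations). The beige and brown media held 5 μM dexamethasone, 0.5 mM isobutylmethylxanthine, 1 nM T3 and 1 μM rosiglitazone, followed by insulin, T3 and rosiglitazone. In the white medium dexamethasone was at 1 μM, with isobutylmethylxanthine again at 0.5 mM and neither T3 nor rosiglitazone, and insulin alone followed. Beige and white thus shared the depot and differed in the medium, while beige and brown shared the medium and differed in the depot. For the brown group, too, the labels give an age of 3 to 4 weeks. The brown libraries are not described in the paper and are used by their labels, and whether they were prepared together with the others is not given in the sources used here. A culture is a mixture of cells that matured to different degrees, so a region open in few cells and a region weakly open in all of them cannot be told apart.

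ATAC-seq cuts DNA with a transposase that reaches only accessible chromatin, and a peak marks a stretch of promoter, enhancer or insulator that was free of nucleosomes in enough cells. Beige adipocytes arise in white depots upon cold or adrenergic stimulation, burn fuel for heat and carry the uncoupling protein Ucp1. Condition-restricted regions are usually enhancers, where AP-1, C/EBP, NFI, TEAD and PPARG factors bind DNA. CTCF, a zinc finger protein, binds a long DNA motif at insulators and at the anchors of chromatin loops, and many of its sites are occupied in most cell types.

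The 6 lists held 109143 to 127490 peaks with a median width of 246 to 267 bp, and the longest was that of beige replicate 2. Of the regions with a peak in either of 2 libraries, 66.9% were shared by the beige replicates, 60.7% by the brown and 57.0% by the white replicates, against 52.5% to 62.5% between libraries of different conditions. The white replicates thus shared fewer regions than beige replicate 1 and brown replicate 1, which shared 62.5%. The promoters of all 10 adipocyte markers examined had a peak in every library, those of 19 to 21 of 23 progenitor markers, 5 to 7 of 10 endothelial and 2 to 3 of 10 macrophage markers did so as well, and these counts were not lower or higher in both beige libraries than in the other 4. Peak lists hold no reads. The reporting summary of the study lists total and mapped reads for the beige and white libraries, with a smaller mapped share and fewer mapped reads in both beige than in both white libraries. Precision here rests on the number of regions, and the intervals given below are 95% Clopper-Pearson intervals, or order-statistic intervals for medians, which cover counting error only. Regions of 1 library pair share their source and are not replicates of a condition, so conditions were compared by values and not by a test.

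Of the 32 motifs first searched in the members, before a D-box was added after values had been seen, the CTCF motif was the 1 found more often than in white alone and in brown alone by more than counting error. Its consensus, here CC and AGNNGGC with 3 free bases between them, was present on either strand in 18.4% of the members, against 4.70% of white-alone and 3.81% of brown-alone regions. Of the strongest members with a match, 9 are shown first, since they carry this result. Strength is the authors' -log10 q of a peak, here the weaker of the beige replicates. Each line gives 24 bases of mm10 on the strand of the match, 5′ to 3′, with the matching bases in capitals, and the name is that of the nearest protein-coding gene.
Parp16: gctgggCCACCAGAGGGCgacgcc
BC051665: ccatggCCAGCAGGTGGCaccaga
Uaca: tacaaaCCACGAGGGGGCgccacc
Thpo: tttcagCCAGCAGAGGGCagtggg
Nhp2: ggctttCCAGAAGGTGGCgatata
Pigh: acccagCCACTAGGGGGCagcaag
Psmd12: tgtgcaCCAGCAGAGGGCaccaga
Cpn2: cagtggCCAGCAGGGGGCagcaga
Pdik1l: aacctaCCACCAGGGGGCaggttt

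In the same order, these stretches lie at chr9:65196955-65196978, chr13:60759340-60759363, chr9:61046674-61046697, chr16:20761905-20761928, chr11:51617858-51617881, chr12:79092699-79092722, chr11:107512127-107512150, chr16:30262836-30262859 and chr4:134292250-134292273. The matches near Thpo, Pigh, Cpn2 and Pdik1l are on the minus strand. The sites near Parp16, BC051665, Uaca, Pigh, Psmd12 and Cpn2 are intronic and those near Thpo, Nhp2 and Pdik1l intergenic. Of the 9, those near Uaca and Nhp2 lacked the stricter form of the motif that the others matched.

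Whole windows of 100 bp to each side of the strongest beige summit are shown for 5 members that differ in place and motif, with matches to the CTCF and AP-1 (TGANTCA) consensus in capitals. Parp16 is the strongest member, BC051665 holds CTCF and AP-1 matches together, Gm13941 is strong without either, U2af2 is at a promoter, and Angptl8 is near the gene of a secreted regulator of lipoprotein lipase.
Parp16, chr9:65196828-65197028: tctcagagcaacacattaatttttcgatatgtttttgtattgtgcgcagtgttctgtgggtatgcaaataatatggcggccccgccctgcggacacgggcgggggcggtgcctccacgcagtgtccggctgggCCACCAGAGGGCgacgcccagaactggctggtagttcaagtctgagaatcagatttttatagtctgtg
BC051665, chr13:60759245-60759445: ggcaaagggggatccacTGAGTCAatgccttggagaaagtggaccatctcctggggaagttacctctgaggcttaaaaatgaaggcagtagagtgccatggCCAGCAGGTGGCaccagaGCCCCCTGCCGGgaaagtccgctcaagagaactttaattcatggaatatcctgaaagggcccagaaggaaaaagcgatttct
Gm13941, chr2:111058691-111058891: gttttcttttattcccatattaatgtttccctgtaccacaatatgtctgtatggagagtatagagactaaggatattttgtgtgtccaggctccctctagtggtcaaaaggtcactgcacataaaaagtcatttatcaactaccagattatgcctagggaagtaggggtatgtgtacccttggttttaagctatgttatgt
U2af2, chr7:5062653-5062853: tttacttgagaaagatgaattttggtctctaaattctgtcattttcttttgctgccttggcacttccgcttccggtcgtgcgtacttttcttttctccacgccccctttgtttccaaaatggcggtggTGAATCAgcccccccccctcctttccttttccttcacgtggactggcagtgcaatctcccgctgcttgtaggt
Angptl8, chr9:21840214-21840414: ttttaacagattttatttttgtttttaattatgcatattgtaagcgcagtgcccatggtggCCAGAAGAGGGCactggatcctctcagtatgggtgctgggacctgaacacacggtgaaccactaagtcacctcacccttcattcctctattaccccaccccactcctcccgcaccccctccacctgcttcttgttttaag

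All 5 windows are on the plus strand. The window of Gm13941 carries the run cctctagtgg near its summit, which shares letters with the CTCF motif but does not match the consensus used.

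The members were narrow and mostly weak peaks. Their median width was 222 bp (95% interval 220 to 224), with a range of 150 to 679 bp, against 241 bp in white alone, 256 bp in brown alone and 588 bp in regions of all 6 libraries. The median of the weaker -log10 q was 4.95, and it ranged from 1.32 to 55.5. It was over 5 in 1868 members, over 10 in 360 and over 20 in 20. Within the peak lists the median member stood at percentile 26.5 of beige replicate 1 and 28.9 of beige replicate 2, and 412 and 629 members reached the upper part of the list above its median. White-alone and brown-alone regions had lower values, with medians of 4.07 and 3.99. Of them 28.9% and 29.8% were over 5, compared with 49.4% of the members. These values come from different lists, which differ in scale. The median -log10 q of all peaks was 11.2 and 12.5 in the beige replicates. It was 9.36 and 9.18 in the white and 12.1 and 9.39 in the brown replicates.

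The summits of both replicates lay close together in the members. Their median separation was 18 bp, and 84.3% lay within 50 bp. The -log10 q was higher in beige replicate 2 for 2484 members, or 65.7%, as its list was also the longer.

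**Figure D1:**
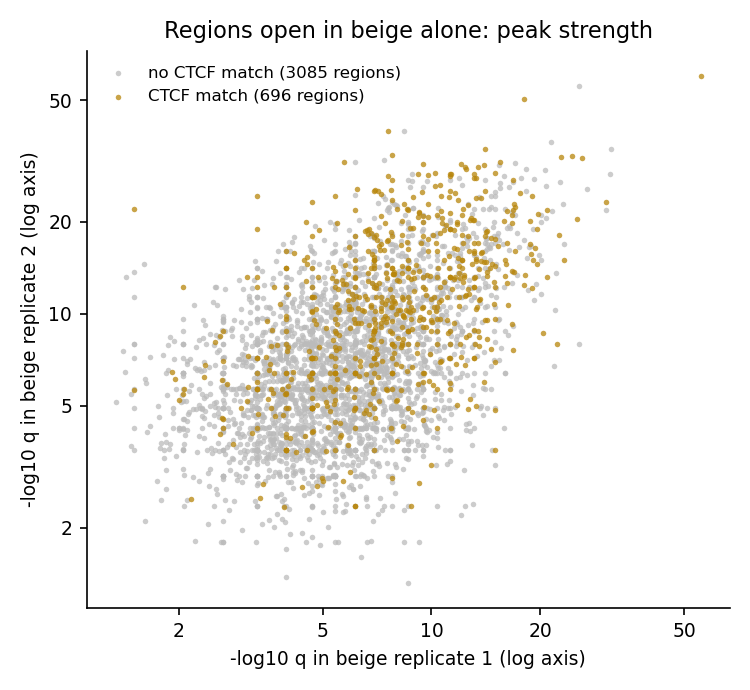
Each point is 1 of the 3781 regions open in beige alone, with the -log10 q of its peak in beige replicate 1 on the x axis and in beige replicate 2 on the y axis, both on log axes. Gold points are the 696 regions with a CTCF match within 100 bp of the summit, and their median weaker value was 7.01, compared with 4.66 for the 3085 regions without one.

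The strongest member, chr9:65196815-65197037, lay in an intron of Parp16, the gene of an ADP-ribosyltransferase of the endoplasmic reticulum, 1575 bp inside its start site. Its -log10 q was 55.5 in beige replicate 1 and 59.9 in beige replicate 2. A white or brown peak lay 50 bp away. The next members were 2 intergenic regions, with values of 31.5 and 34.7 near Pbk, a mitotic kinase, and of 31.3 and 28.6 near Gm13941. Neither held a CTCF match, and that near Gm13941 was 68289 bp from any white or brown peak. The member nearest BC051665 lay in an intron of Dapk1, a death-associated kinase, with values of 26.1 and 32.3.

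The other 6 of the first 10 members included 3 with a CTCF match. That of Duoxa2, which helps a dual oxidase mature, lay in a 3′ UTR shared with Duoxa1, with values of 26.9 and 25.7. Near Rassf6 the replicates differed most, at 25.7 and 55.6. The region nearest Uaca was 252140 bp from its start site, with values of 24.4 and 32.8. Near Thpo, the gene of thrombopoietin, they were 30.3 and 23.2, and near Nhp2, a component of the small nucleolar ribonucleoproteins that guide pseudouridylation, 22.9 and 32.7. The member nearest BC035947 lay in an intron of Mogat1, a monoacylglycerol acyltransferase of triglyceride synthesis, with 23.2 and 23.0.

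The rule has a hard edge. The members just inside it were near Arhgef3, with -log10 q of 3.96 and 1.38, near Slc25a18, with 1.34 and 5.15, and near Plpp3, with 8.64 and 1.32. The regions just outside it had a beige pair and 1 weak peak elsewhere: near C1galt1 (6.95 and 8.71 in beige, 1.34 in white replicate 2), near Mark2 (2.91 and 13.2, 1.36 in brown replicate 2) and near Hmx1 (3.27 and 3.79, 1.38 in brown replicate 2). Of the 89147 regions with a peak in both beige libraries, 4.24% had none in the other 4 and 5818 had a peak in exactly 1 of them. That 1 library was white replicate 2 in 2139 cases, brown replicate 1 in 1665, white replicate 1 in 1158 and brown replicate 2 in 856. The lone peak was seldom marginal, with a median -log10 q of 6.03 and 7.20% under 3.

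Most members lay away from promoters. Of the 3781, 1886 (49.9%) were in introns and 1464 (38.7%) between genes, while 237 (6.27%, 95% interval 5.52 to 7.09) lay within 1 kb of the start of a protein-coding transcript. There were 75 in 3′ UTRs, 52 in coding exons, 67 in other exons and 0 in 5′ UTRs outside promoters. Promoters made up 6.01% of white-alone regions, 3.93% of brown-alone regions and 24.3% of the regions of all 6 libraries. The promoter share of the members was thus below that of shared regions by more than counting error, and its interval overlapped that of white alone (5.09 to 7.04). It depended on the rule: it was 1.85% for members with no white or brown peak within 1 kb, 10.6% where peaks had to overlap by 0.5 of both to count as shared, and 9.45% without white replicate 2.

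The median distance from a member's summit to the nearest start site was 26670 bp (25047 to 28198). It was 34305 bp (32157 to 37631) in white alone, 47335 bp (42759 to 51058) in brown alone and 17722 bp in regions of all 6 libraries. Within 100 kb of a start site lay 80.6% of the members, compared with 74.1% of white-alone and 70.8% of brown-alone regions. There were 89 members over 500 kb away.

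**Figure D2:**
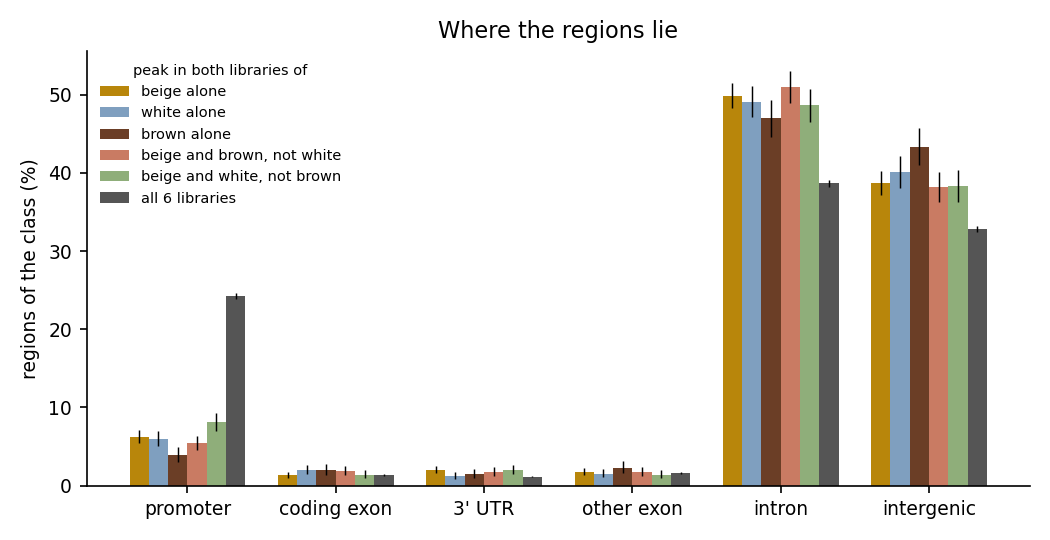
Bars give the share of regions, in percent of each class, by their place in the gene annotation, for the classes named by the libraries that had a peak, and error bars are 95% Clopper-Pearson intervals. Promoters held 6.27% of the regions open in beige alone and 24.3% of those open in all 6 libraries, while introns held 49.9% and 38.7%.

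At promoters, the strongest members mostly lay beside the start site and not on it. That of Dhodh, an enzyme of pyrimidine synthesis in mitochondria, lay 336 bp upstream with -log10 q of 22.7 and 27.0, and 84.1% of its window was repeat sequence. At U2af2, a subunit of the splicing factor that reads the polypyrimidine tract, it lay 508 bp downstream (21.5 and 36.6), and at Bbx 301 bp upstream (20.1 and 19.9). Eif3g, a translation initiation factor subunit, had 18.04 and 17.4, and Cln3, a lysosomal membrane protein, 16.5 and 19.0. Lrig1, which restrains growth factor receptors, had 15.0 and 24.98. Tmem249, Lmo1, Son and Slco2b1 followed, with weaker values of 14.9, 14.5, 14.0 and 13.8. Of these 10 promoters, that of Slco2b1, an organic anion transporter, held a CTCF match. White or brown peaks stood within 50 bp of the members at Dhodh, U2af2, Bbx, Eif3g, Lmo1 and Son.

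The genes near the members were mostly open in every condition already. Of 232 genes with a member at a promoter, 175 (75.4%, 95% interval 69.4 to 80.8) also had a region of all 6 libraries within 1 kb of a start site. Among the 3101 nearest genes the share was 76.1%, and among all 21851 protein-coding genes 62.8%.

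Many members adjoined other peaks. A white or brown peak lay within 100 bp of 719 members (19.0%, 95% interval 17.8 to 20.3) and within 1 kb of 1509 (39.9%), and the median gap was 1948 bp. For white-alone regions, the share within 100 bp of a peak of the conditions they lacked was 12.9%, and for brown-alone regions 7.15%. The adjoining members differed from the others: 15.2% of the 719 and 4.18% of the 3062 others were at promoters, 6.12% and 21.3% held a CTCF match, and 9.18% and 16.7% an AP-1 match. Whether an adjoining member is the edge of a wider shared region that the peak caller split was not tested. The other 3062 held most of the CTCF matches, 652 of 696.

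The 3 widest members were 679 bp long near Aldh1a3, an enzyme of retinoic acid synthesis (-log10 q of 4.50 and 8.00), 661 bp near Ppp1cb, a catalytic subunit of protein phosphatase 1 (5.14 and 10.1), and 644 bp in an intron of Npr3, the clearance receptor of natriuretic peptides, which act on lipolysis (4.80 and 5.29). None of them held a CTCF or AP-1 match.

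The sequence of the members was compared with that of other classes by searching each strand for 32 consensus sequences in a window that reached 100 bp to either side of a region's strongest summit. The CTCF share of 18.4% (17.2 to 19.7) lay above that of the other classes: 12.7% in beige and white without brown, 13.7% in regions of all 6 libraries, 7.55% in beige and brown without white, 4.70% (3.89 to 5.63) in white alone, 3.81% (2.95 to 4.83) in brown alone and 9.32% in all merged regions. The comparison with regions of all 6 libraries has limits. In windows with few repeats the shares did not part (14.2% and 13.8%, given below), and with 1 beige library left out the share of the members was 9.66% to 11.2%, under the 13.7% of those regions, while it stayed above white alone and brown alone. A stricter form of the motif, added after values had been seen, was found in 7.51% of the members (6.69 to 8.40), 0.672% of white-alone and 0.410% of brown-alone regions, 5.13% of regions of all 6 libraries and 2.97% of all regions.

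AP-1, NFI half-site and TEAD matches were less frequent than in white alone and brown alone. The AP-1 consensus TGANTCA was found in 15.2% (14.1 to 16.4) of the members, compared with 20.1%, 29.9% and 21.2% in white alone, brown alone and all merged regions. The AP-1 direction turned without white replicate 1 (12.9% in white alone and 16.5% in the members). It also turned without brown replicate 1 (12.2% in brown alone and 18.05% in the members). It held without brown replicate 2 (24.3% and 14.8%). Without white replicate 2 the intervals overlapped (14.3 to 15.3 in white alone and 12.6 to 14.4 in the members). A class that lost a library in this way rests on regions of 1 library. TTGGCA, the half-site of the NFI factors, had 14.1%, against 19.7%, 17.3% and 15.5%. GGAATG, the motif of the TEAD factors of the Hippo pathway, had 12.1%, against 16.8%, 18.9% and 14.1%. The NFI and TEAD shares of white alone and brown alone were not computed with libraries left out. In beige and white without brown, AP-1, NFI and TEAD had 17.9%, 16.3% and 12.9%, with intervals that overlapped those of the members. For the other 28 motifs the interval of the members overlapped that of white alone, of brown alone or of both. Among them the ETS motifs CCGGAAG and AGGAAGT together were found in 6.72% of the members, 9.79% of white-alone, 7.09% of brown-alone and 8.71% of all regions, and the SPI1 consensus, which contains the second of them, is not independent of this count. The DR1 element, a pair of AGGNCA half-sites 1 base apart that the adipocyte regulator PPARG binds with RXR, was found in 0.423% of the members and 0.461% of all regions. The DR4 element of the thyroid hormone receptor, a pair of AGGTCA half-sites 4 bases apart, had 0 matches in the members and 0.0129% in all regions. A match is a string of letters, not a bound factor.

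**Figure D3:**
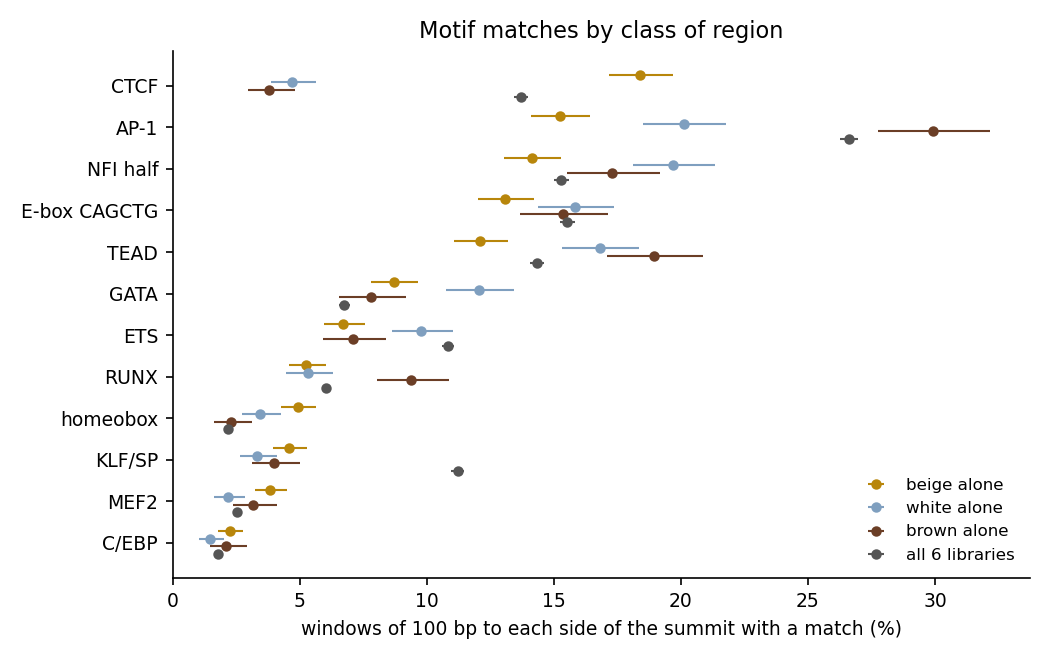
Points give the share of windows, 100 bp to each side of the summit, with a match to each of 12 consensus sequences, in percent, and horizontal bars are 95% Clopper-Pearson intervals. CTCF stands at 18.4% in regions open in beige alone, compared with 4.70% in white alone and 3.81% in brown alone, and AP-1 at 15.2%, compared with 20.1% and 29.9%.

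The CTCF share was higher among stronger members. Among members whose weaker -log10 q was up to 3 it was 8.02% (36 of 449), from 3 to 5 9.84% (144 of 1464), from 5 to 10 23.2% (350 of 1508, interval 21.1 to 25.4), and from 10 to 20 46.8% (159 of 340, interval 41.4 to 52.2). Of the 20 members above 20, 7 held a match. In the first 4 ranges it was 3.98%, 4.79%, 5.10% and 5.13% (2 of 39) in white-alone regions, with overlapping intervals, and 3.59%, 3.71%, 4.59% and 0 of 48 (upper limit 7.40%) in brown-alone regions. In beige and white without brown it went from 8.07% to 25.6%, and in regions of all 6 libraries from 6.22% to 16.4%. The AP-1 share of the members went the other way, from 18.7% up to a value of 3 to 5.00% between 10 and 20, while in brown alone it went from 24.4% to 35.4%. These ranges use the strength of the peaks that also chose the regions. Between classes they are not on a common scale, since the lists differ in their -log10 q.

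**Figure D4:**
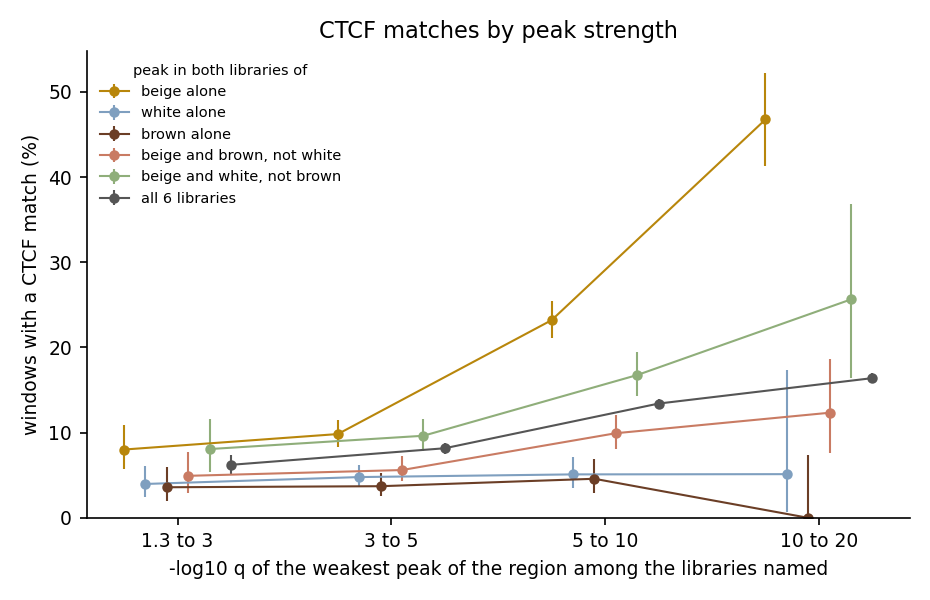
The share of windows with a CTCF match, in percent, is plotted over 4 ranges of the weakest -log10 q of a region among the libraries that define its class, with 95% Clopper-Pearson intervals. In regions open in beige alone it went from 8.02% to 46.8%, while white alone stayed between 3.98% and 5.13% and brown alone at or under 4.59%.

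The CTCF matches sat at the centre of the peaks. The median distance from the summit to the centre of the nearest match was 14.5 bp, and 72.1% of the 696 matches (68.6 to 75.4) lay within 25 bp, compared with 27 bp and 47.6% for the 576 AP-1 matches. Members with a CTCF match were less often at promoters than the others (3.30% and 6.94%), less often held an AP-1 match (6.47% and 17.2%), and had more repeat sequence (23.5% and 14.5% of the window on average). Their distance to a start site, 23348 bp in the median, was near that of the others, 27709 bp.

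**Figure D5:**
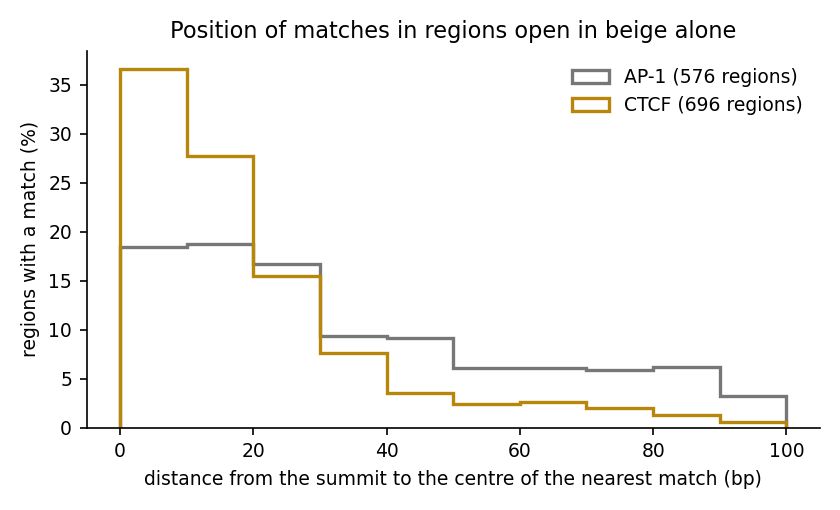
The histogram shows the distance in bp from the summit to the centre of the nearest match, in bins of 10 bp, for the 696 members with a CTCF match and the 576 with an AP-1 match, each in percent of its own members. The CTCF matches crowd near 0, with a median of 14.5 bp, compared with 27 bp for AP-1.

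The matching strings were diverse: 187 different ones were found, 110 of them once. The most frequent was CCAGAAGAGGGC, found in 93 members, of which 92 had it in sequence that the genome marks as repeat. It was present in 2.46% of the members, 0.378% of white-alone, 0.117% of brown-alone and 0.574% of all regions. Mouse B2 retrotransposons are known to carry CTCF sites, but the kind of repeat was not examined. Without this string the CTCF share was 15.9% in the members, 4.33% in white alone and 3.69% in brown alone. In windows with at most 10% repeat bases it was 14.2% (255 of 1793, interval 12.6 to 15.9), 4.52% and 4.15%, and it was 13.8% (13.5 to 14.2) in regions of all 6 libraries.

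The CTCF difference was also seen in regions outside the rule. Regions with a peak in exactly 1 of the 6 libraries held a CTCF match in 6.36% (5.86 to 6.90) of those of beige replicate 1 and 9.27% (8.76 to 9.79) of those of beige replicate 2, against 4.45% and 4.07% in the white and 3.71% and 3.89% in the brown replicates. Seen from the motif, 5476 merged regions held the stricter match when the regions of beige alone, white alone and brown alone were set aside. Of these, 86.7% and 92.6% had a peak in beige replicates 1 and 2, 70.7% and 79.9% in white, and 72.1% and 70.9% in brown. The 39758 such regions with an AP-1 match did not part the conditions this way. They had 63.2% and 68.9% in beige, 66.3% and 59.3% in white, and 69.1% and 58.7% in brown. Both sets still held the regions of exactly 1 library, so these shares are not independent of the comparison above. With the stricter match, such regions numbered 122 and 304 for the beige, 62 and 56 for the white and 26 and 33 for the brown replicates. Beige replicate 2 had the longest list, while that of beige replicate 1 was shorter than both white lists. Other measures of size differed from this. Beige replicate 1 had a peak in 105903 merged regions, white replicate 1 in 106997 and white replicate 2 in 104078. Its peaks also covered more of the genome, with a higher median -log10 q, than those of either white library. The part of these measures in the CTCF difference was not tested. When all lists were cut to the same length the CTCF share was 22.5% in beige alone, 4.63% in white alone and 3.64% in brown alone. The smaller mapped share of both beige libraries goes along with this difference between beige and white, and its part in it was not tested.

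The members were scattered over the genome. They took 1.63% to 2.11% of the merged regions of each autosome and 2.59% (2.08 to 3.17) on X, while 0 of 46 regions on Y were members. Another member lay within 50 kb of 879 of them (23.2%, 95% interval 21.9 to 24.6), compared with 16.0% in white alone, 13.8% in brown alone and 22.0% in beige and brown without white. This share depends on the number of regions in a class, since larger classes lie closer. Chained at 50 kb, the members formed 406 clusters of 2 or more with 2902 left single, and 2 clusters had 5 members, 13 had 4 and 35 had 3.

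The largest clusters were 5 members over 93.6 kb near Arl14epl, Commd10 and Lvrn, with weaker -log10 q of 2.65 to 5.80, and 5 members over 78.1 kb near Tcof1, Arsi and Camk2a, a calcium/calmodulin-dependent kinase, with 3.16 to 4.82. Neither held a CTCF match or a promoter member. Next, in genome order among the 13 clusters of 4, were those near Nek2 and the zinc exporter Slc30a1 (4.00 to 7.07), near Camk1d and Ccdc3 (2.36 to 9.52), where 2 members held a CTCF match, and near Rassf2 and the vitamin C transporter Slc23a2 (2.87 to 6.00). A cluster of 4 between Med24, Thra, the gene of thyroid hormone receptor alpha, and Nr1d1, a repressor of the circadian clock, had 2.84 to 8.25. Each of these clusters was made of moderate peaks, and other open regions stood among them: 9 to 20 regions of any kind lay in the spans of these 6.

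By windows of 1 Mb, the densest had 11 members among 142 regions (7.75%, 3.93 to 13.4) at chr15:73000001-74000000, around Dennd3, Slc45a4 and Ptk2, and 11 of 181 at chr15:102000001-103000000, around Hoxc8, Hoxc13, Igfbp6 and Krt18. Next were 10 of 133 at chr4:107000001-108000000, which includes Dio1, a thyroid hormone deiodinase, 9 of 126 at chr2:31000001-32000000 with Abl1 and Ass1, and 9 of 120 at chr5:90000001-91000000 with the chemokines Cxcl1 and Cxcl5. The windows with 9 members were named in genome order, and others had as many, such as chr6:50000001-51000000 with 9 of 114. There were 648 windows with 1 member, of 1656 with any.

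Each member was assigned to the nearest start site of a protein-coding gene, which is a matter of position and not of regulation. A member given for a gene can lie inside another gene. For example, those of Rap1gap, Pink1, Fasn and Angptl8 lay in introns of Usp48, Ddost, Ccdc57 and Dock6. The members fell to 3101 of 21851 genes, or 14.2%. Of these, 2547 genes had 1 member, 454 had 2, 82 had 3, 10 had 4 and 8 had 5. The 8 were Atg7, Gata3, Myc, Nfib, Pcdh7, Thsd4, Tnr and Zfp217, followed by symbol by Bicc1 and Dlc1 with 4 each.

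Atg7, the enzyme that activates ubiquitin-like proteins in autophagy, had the densest set, 5 of its 28 regions (17.9%). Their weaker -log10 q reached 9.88, at chr6:114659379-114659591 in an intron. Of its other regions, 1 was open in white alone and 0 in brown alone. Gata3, which restrains the maturation of preadipocytes, had 5 of 63, from 33970 to 1232951 bp away. At Nfib, a transcription factor of the NFI family, 5 of 97 were members, and the strongest lay 290 bp from a start site with 9.11 and 13.2. At Zfp217 it was 5 of 78 and at Tnr, the gene of the matrix protein tenascin-R, 5 of 45, with 2 CTCF matches. Myc had 5 members among 145 regions, all at 268271 to 601353 bp, and as many white-alone regions. Pcdh7 and Thsd4 had 5 of 84 and 5 of 80.

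Genes of 30 lists were looked up by nearest member, and the share of genes in a list that had one is given against the background of 14.2%. For the counts of genes with a white-alone or a brown-alone region, the background was 9.12% and 6.53% of all genes. The lists are short and their intervals wide, and genes in wide intergenic space collect more regions of any class, which was not corrected for. Highest were neuronal and axon guidance genes, with 17 of 31 (54.8%, 36.0 to 72.7), and 13 of these 31 had a white-alone and 11 a brown-alone region, also above their backgrounds. Adipogenic transcription factors followed with 12 of 25 (48.0%, 27.8 to 68.7), 7 and 7. Insulin signalling had 12 of 26 (46.2%, 26.6 to 66.6), 10 and 8. Thyroid hormone target genes had 7 of 18, with 3 and 3. With members counted only within 100 kb, 6 of the 31 neuronal genes had one, compared with 2666 of all 21851 genes. That count was 10 for the adipogenic factors, 11 for insulin signalling and 7 for the thyroid list.

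Among adipogenic factors, Nfix had its member 468 bp upstream of a start site, with -log10 q of 13.5 and 11.96. Cebpb, an early driver of adipogenesis, had a member with a CTCF match 72836 bp away (8.26 and 13.6), and Zfp423, which restrains the thermogenic program, one in an intron (7.06 and 15.2). Cebpa had 2, the stronger with 4.35 and 4.81. In the same list Ebf1, Ebf2, Gata3, Klf4, Klf5, Nfib, Nr3c1 and Rxrg also had a member, and the other 13 genes did not.

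Thermogenic genes had 5 of 19 (26.3%, 9.15 to 51.2): Ebf2, Esrrg, Irf4, Ppara and Zfp516. Ucp1 was not among the 5. Of the 19, 2 had a white-alone and 6 a brown-alone region. A region open in beige and brown without white was near 9 of the 19, compared with 2032 of all 21851 genes. At Zfp516, a cold-induced activator of thermogenic genes, the member lay in an intron with a CTCF match and values of 13.2 and 24.0. At Irf4, which acts with the coactivator PGC-1α, it lay 70867 bp away in an intron of Exoc2, with 6.95 and 7.18. Esrrg, an estrogen-related receptor, had 3.62 and 8.80, and Ppara, a receptor of fatty acids, 2.79 and 8.89.

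Of 14 beige-selective markers, 2 had a member, Cd40 and, over 100 kb away, Tmem26, while 3 had a white-alone and 2 a brown-alone region. That of Cd40 was strong, at 11.6 and 18.7, in an intron with a CTCF match and 3623 bp from a white or brown peak. Of 10 brown depot markers En1 and Lhx8 had one, that of En1 over 100 kb away and that of Lhx8 528 bp inside its start site (5.31 and 8.96). Of 12 white-selective markers found, 3 had one: Hoxc8 (11.9 and 13.6), Nnmt, a nicotinamide methyltransferase (7.60 and 6.15), and Psat1, of serine synthesis (5.20 and 7.18). The intervals of these 3 lists include the background of 14.2%.

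Adipocyte markers with a member were Cd36, Lpl and Cebpa, 3 of 10. Cd36, the fatty acid transporter, had 3 members, of which the strongest had 7.14 and 9.07 and lay 54 bp from a white or brown peak. Lpl, lipoprotein lipase, had 8.10 and 6.96, and lay 30431 bp from the member. Of 30 PPARG target genes 6 had a member, against 3 with a white-alone and 8 with a brown-alone region. Plin2, a coat protein of lipid droplets, had 9.36 and 5.56. For lipid droplets and lipolysis it was 3 of 20, with Abhd5, the activator of the lipase ATGL, at 6.31 and 6.37. For lipogenesis it was 5 of 18 and for fatty acid oxidation 2 of 23.

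Targets of the hormones in the medium were near members at shares whose intervals included the background, apart from the thyroid list. The neuronal, adipogenic, insulin signalling and BMP lists also had intervals above the background. So did the AP-1 family list, barely, with a lower limit of 14.21% against 14.19%. Of the 18 thyroid hormone target genes, 6 had a region open in beige and brown without white. A link to the medium was not tested. Among thyroid hormone target genes, Thrb, a thyroid hormone receptor, had 9.52 and 13.4 and Thra 8.69 and 5.99. Fasn, fatty acid synthase, had 5.61 and 5.66 and Klf9 5.04 and 5.27. Of 24 glucocorticoid target genes 6 had a member. That of Tat, tyrosine aminotransferase, was the strongest, at 18.8 and 16.9, with a CTCF match 8133 bp from any white or brown peak. Errfi1 had 6.59 and 9.69 and Nfkbia, an inhibitor of NF-κB, 4.24 and 9.55. T3 and rosiglitazone were also in the brown medium, and dexamethasone in all media.

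Of 46 genes of cAMP and adrenergic signalling, 11 had a member (23.9%, 12.6 to 38.8). Rap1gap, which switches off the GTPase Rap1, had 15.3 and 18.4. Adra1b, an α1-adrenergic receptor, had 8.88 and 19.1 with a CTCF match. The phosphodiesterases Pde4d and Pde4b, which degrade cAMP, had 7.76 and 18.3, and 7.13 and 6.21. The β1-adrenergic receptor gene Adrb1 was among the 11.

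Insulin signalling was led by Pik3r1, the regulatory subunit of PI 3-kinase, with 10.6 and 21.7 and a CTCF match 3425 bp upstream of a start site. Foxo1, a transcription factor that insulin keeps out of the nucleus, had 7.83 and 9.84, Insr, the insulin receptor, 6.40 and 7.46, and Igf2 6.40 and 14.1. Grb10, Grb14, Igf1r, Slc2a1 and Trib1 also had a member. For adipokines and secreted factors it was 6 of 28, of which Angptl8 had 14.7 and 17.7.

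Mitochondrial biogenesis regulators had 6 of 20 (30.0%, 11.9 to 54.3). Ppargc1b, a coactivator of mitochondrial genes, had 15.0 and 9.63 with a CTCF match 59130 bp upstream. Tfb1m, a methyltransferase of mitochondrial ribosomal RNA, had its member 453 bp upstream of a start site (5.72 and 12.6), Nrf1 had 5.35 and 5.43, and Nfe2l2 4.66 and 7.18. Autophagy genes had 6 of 30 (20.0%, 7.71 to 38.6). Besides Atg7 they included Atg4c (9.48 and 17.9, with a CTCF match), Pink1, a kinase of mitophagy (4.73 and 15.8), Atg14 (2.65 and 4.94) and Atg4a.

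Of the remaining lists, BMP and TGF-β genes had 12 of 40 (30.0%, 16.6 to 46.5), with 10 in white alone and 10 in brown alone. A member within 100 kb was found for 8 of the 12, and Smad6, an inhibitor of BMP signals, had 10.6 and 7.09. WNT genes had 5 of 44 (11.4%), near the background, and 14 had a white-alone and 12 a brown-alone region, while Tcf7l2 had a member 254 bp from a start site (7.79 and 6.28). AP-1 family genes had 6 of 17 (35.3%, 14.21 to 61.7), and 3 had a white-alone and 2 a brown-alone region. Among them were Fos at 7.26 and 10.2 and Batf3 at 12.1 and 7.24, both with a CTCF match. ETS family genes had 5 of 26 (Elf1, Erg, Ets2, Etv4 and Etv6), and Ets1 was not among them. FGF and VEGF genes had 7 of 24, skeletal and cartilage genes 5 of 16, smooth muscle genes 4 of 18, creatine and calcium cycling 3 of 23, and progenitor markers 3 of 23, of which Pdgfra had 11.2 and 11.4. Macrophage markers had 1 of 10 (Fcgr1), endothelial markers 2 of 10 (Kdr and Pecam1) and skeletal muscle genes 1 of 18 (Mef2c, over 100 kb away). Neuronal genes were led by Cntnap2, a cell adhesion protein, with 13.9 and 14.8 and a CTCF match 52898 bp upstream.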

How the data were processed

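ATAC-seq libraries of beige, white and brown adipocytes, 2 each, were used. The authors trimmed the reads, aligned them to mm10 with BWA and called peaks per library with MACS2 at a q value under 0.05. The methods name no shift of reads to the transposase cut. The deposited lists give for each summit a fold, a ratio of pileup over the local background, and the -log10 q, both within 1 library. Where -log10 q is set side by side between classes, it was not put on a common scale. They hold no read counts, and the total reads that the study lists for the beige and white libraries were not used. Summits of 1 interval were counted as 1 peak.

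Merging, annotation and motif search were done in Python 3.11.15 with pysam 0.24.0, pandas 2.3.3, numpy 2.4.6, matplotlib 3.10.9 and scipy 1.17.1, and were tested on simulated data. Genes were those of GENCODE M21, and sequence was RefSeq's GRCm38.p6, the build of mm10. Coordinates are 1-based. A region's summit was the strongest beige one for the members, and a promoter was 1 kb to each side of a start site.

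The members and gene lists were chosen with earlier results of these data known. Named were the 10 strongest members by the weaker beige -log10 q, the 10 strongest at promoters, the 10 genes with most members, the 5 largest clusters and densest windows, the 3 widest, the 3 to each side of the rule's edge, and up to 4 genes per list with a member within 100 kb. The clusters at Thra, and list genes given without values, were named after their values were seen, as was Ets1. The stricter CTCF consensus, strength ranges, regions of 1 library, the frequent string and the D-box were added after values were seen. Alternatives were stricter q, equally long lists, other overlap rules and windows, and each library left out. Some members that this choice covers are not reported here.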

Additional observations from a re-analysis of the deposited data

How the results depend on the processing

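The 3781 regions became 3796 at q under 0.01, 3328 at q under 0.00001, 2853 with equally long lists and 4658 with an overlap of 0.5 of both peaks. They fell to 1870 with beige q under 0.00001 and the others as deposited, and to 2272 with no white or brown peak within 1 kb. Without 1 library they numbered 4680 to 16667, which follows from the rule: leaving out a beige library asks for 1 peak in place of 2 (16667 and 13093), and leaving out another frees the regions it closed (6151 without white replicate 2, the largest of these).

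The promoter share was 10.6% with the overlap of 0.5, 1.85% with no peak within 1 kb, 11.8% for promoters within 3 kb, 4.79% with 1 start site per gene, and 5.94% to 9.45% without 1 library, highest without white replicate 2. The median distance to a start site was 24353 bp at q under 0.00001, 24497 bp with equally long lists, 22024 bp with the beige threshold, 24835 bp with the overlap of 0.5, 30415 bp with no peak within 1 kb, 31426 bp with 1 start site per gene and 26050 to 37095 bp without 1 library. With 1 start site per gene, 92.7% of the members kept their nearest gene. The share with another member within 50 kb was in the same order 21.5%, 19.3%, 14.5%, 29.0% and 14.0%, and 28.7% to 62.9% without 1 library. It was 6.85% within 10 kb and 38.3% within 100 kb.

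The CTCF share was 22.2%, 22.5%, 27.6%, 16.4% and 22.2% in that order, 16.5% in windows of 50 bp and 23.2% of 250 bp to each side, 14.2% with at most 10% repeat bases, 7.51% by the stricter consensus, and 9.66% to 18.8% without 1 library. The values near 10%, 11.2% without beige replicate 1 and 9.66% without beige replicate 2, rest on regions of 1 beige library. At both stricter q values and with equally long lists it stayed above white alone (4.35% to 4.73%) and brown alone (3.64% to 3.86%), as it did in windows with few repeats (4.52% and 4.15%); the other settings were not computed for all of these classes. The AP-1 share was 13.6%, 13.5%, 11.6%, 13.9% and 17.8%, with 10.8% and 22.2% in the narrower and wider windows and 13.5% to 18.05% without 1 library. Without white replicate 1, 12.9% of white-alone regions and, without brown replicate 1, 12.2% of brown-alone regions held an AP-1 match, below the members. Without brown replicate 2 it was 24.3% in brown alone, above the members. Without white replicate 2 it was 14.8% in white alone, above the members but with overlapping intervals. These white-alone and brown-alone regions rest on 1 library. The cause of the change in direction was not tested. No paired analysis was possible because the results are counts and shares that come from no test. Peak lists hold no reads, so weak peaks missed in white or brown cannot be told from closed chromatin.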

Other observations

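A further motif stood out among members without a CTCF match. The words TATGTAA and TACATAA were found in 2.56% and 2.30% of these 3085 members, compared with 0.824% and 0.764% of all merged regions. Both are parts of the D-box TTATGTAA and its reverse complement, a string that the PAR bZIP proteins DBP, TEF and HLF and their repressor NFIL3 bind in the circadian system. It was found in 2.88% of the members (109 of 3781, 95% interval 2.37 to 3.47) and in 2.17% of regions open in beige and brown without white, against 0.336% in white alone, 0.527% in brown alone and 0.749% in all regions. In regions of 1 library it was found in 1.13% and 1.23% of those of the beige replicates, 0.301% and 0.524% of the white and 0.468% and 0.410% of the brown. Among the strongest members it was held by the one in the Mogat1 intron, and among list genes by those of Adra1b and Vegfa. This motif was chosen after the words had been counted in the same windows, and C/EBP proteins bind similar strings.

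TAATTA, the core of homeobox motifs, was found in 4.92% of the members (4.25 to 5.66), compared with 3.44% in white alone (2.75 to 4.26), 2.28% in brown alone and 2.72% in all regions. AGATAA, bound by GATA factors, was found in 8.70% of the members, 12.1% of white-alone, 7.79% of brown-alone and 8.07% of all regions.

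The members were richer in repeats than the other classes: 16.2% of the bases of a window on average were repeat sequence, compared with 10.9% in white alone, 11.1% in brown alone and 12.8% in all regions. In 8.49% of the members most of the window was repeat sequence, against 4.75%, 4.39% and 6.63%. The median GC content was 47.3%, below the 48.8% of white alone and the 49.8% of brown alone.

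Strong members without the CTCF consensus held words that resemble it. Of 583 such members with a weaker -log10 q over 7, CACTAGA was found in 8.92%, compared with 1.97% of all merged regions, and CCCTCTA in 7.03%, compared with 1.89%. These words were chosen after words had been counted in the same windows. All merged regions were not matched for strength and include those with a CTCF match. Of the 100 strongest members, 39 held the consensus and 7 an AP-1 match.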
